A study of Homo sapiens with 12 samples.

Results

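The genes described here are MYC, its relatives MAX and MYCN, and 43 genes that build ribosomes or make polyamines, 46 genes in all. They were chosen by name, as genes of the MYC network, the nucleolus and RNA polymerase I, and each was represented by the brightest probe set that names that gene alone. Of the 46 genes, 40 had such a probe set, out of 19775 genes on the array. NOP56, DKC1, BOP1 and PPAN appear only on probe sets that name other genes as well, and GNL3 and DDX18 are named by no probe set in the annotation used here, so these 6 were not measured.

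Transcript levels came from 12 Affymetrix expression arrays, 3 for each of 4 groups of human cells labelled as multiple myeloma lines. Cells labelled MMS1 and cells labelled RPMI8226 each carried either a control mock sponge or a sponge against miR-16, and no other agent or allele is given. Every group had been transduced with a lentivirus carrying GFP, sorted by flow cytometry and expanded, and the controls share all of these steps. The labels call the sponge arrays miR16 KO, knock down or siRNA in different fields, and write RPMI8226 as RPMI or RPMI826 in part. The question stated for the series was which genes respond when miR-16 is taken away, as a model of the loss of part of chromosome 13 in myeloma. The labels do not say whether each array came from a flask of its own, so p-values measure only the spread between these arrays, which may be technical.

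MYC is a transcription factor that binds DNA as a heterodimer with MAX, and MYCN is its paralogue in neural and some other tissues. Among the best known targets of MYC are the genes for ribosome production. RNA polymerase I makes the rRNA precursor in the nucleolus, box C/D and other small nucleolar ribonucleoproteins (snoRNPs) modify it, and separate sets of assembly factors fold and cut it into the 40S and 60S subunits. Myeloma cells, which derive from antibody-secreting plasma cells, commonly carry MYC rearrangements or high MYC levels.

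A sponge is a transcript with repeated microRNA binding sites that draws the microRNA away from its targets. The microRNA targeted here is miR-16, made from a gene in an intron of DLEU2 (chr13:50049027-50049048, minus strand) and from another in an intron of SMC4 (chr3:160404754-160404775, plus strand), in RefSeq coordinates of GRCh38.p14. Its mature sequence is shown with the seed, bases 2 to 8, in capitals, because the seed is what a sponge site pairs with.
hsa-miR-16-5p: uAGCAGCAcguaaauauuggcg

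MYC and MAX are known to bind the palindromic E-box CACGTG, which reads the same on both strands. Of the 40 genes, 34 matched an entry of the RefSeq table of upstream windows (250 bases before the annotated gene start, GRCh38.p14), and 7 of these 34 (20.6%) held CACGTG. Of the 15384 genes on the array that matched the table, 1490 (9.69%) did, and of all 35116 windows 6.34% did. The 7 genes are shown with 60 bases around the motif, which is in capitals, because their sponge and line differences are given separately at the end of the results. Each run is written 5′ to 3′ on the strand of the gene.
DDX21, chr10:68956587-68956646, plus strand: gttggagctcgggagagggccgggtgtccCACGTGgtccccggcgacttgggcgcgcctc
IMP4, chr2:130342667-130342726, plus strand: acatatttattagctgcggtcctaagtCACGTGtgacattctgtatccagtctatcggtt
NAT10, chr11:34105569-34105628, plus strand: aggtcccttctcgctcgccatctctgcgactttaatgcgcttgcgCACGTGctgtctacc
ODC1, chr2:10448013-10448072, minus strand: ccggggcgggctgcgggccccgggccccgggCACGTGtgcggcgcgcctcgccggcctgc
SRM, chr1:11060185-11060244, minus strand: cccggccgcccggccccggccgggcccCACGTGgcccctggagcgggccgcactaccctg
UTP20, chr12:101280045-101280104, plus strand: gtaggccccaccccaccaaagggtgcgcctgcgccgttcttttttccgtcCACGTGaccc
UTP4, chr16:69132589-69132648, plus strand: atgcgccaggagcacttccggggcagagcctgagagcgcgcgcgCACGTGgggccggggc
The motif starts 10 to 31 bases before the gene start in DDX21, NAT10, ODC1, UTP20 and UTP4. In SRM it lies farther upstream, at 199 bases, and in IMP4 farther still.

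Values are log2 signals with a lower bound of 4, and array medians lay between 5.80 and 5.90. The median standard error of a difference between 2 groups was 0.14, and 3 arrays a group set this precision. The array of MMS1 with the miR-16 sponge, replicate 1, stood apart from the other 11, with an 18S rRNA control signal of 7.84 against 9.56 to 11.1. Counts that change without it are given both ways below. The labelled cell type was not borne out by most of its markers in any group. The 10 plasma cell markers had means over 12 arrays from 4.20 for JCHAIN and 4.46 for TNFRSF17, near the lower bound, to 8.51 for XBP1 and 8.90 for SDC1. Of these 10, 4 lay above the median gene (6.44) and 2 above the upper quartile (7.62), and the array means of the list were at most 6.27 in all 4 groups. The 5 measured erythroid markers of a list of 10 were bright, with HBE1, an embryonic globin, at 14.16 and GATA1 at 9.56. The erythroid array means were 11.5 to 11.6 in MMS1 with the control sponge and 10.2 on each array with the miR-16 sponge, and 11.2 to 11.3 and 11.1 in RPMI8226. MMS1 and RPMI8226 are used below as the names on the labels.

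**Figure D1:**
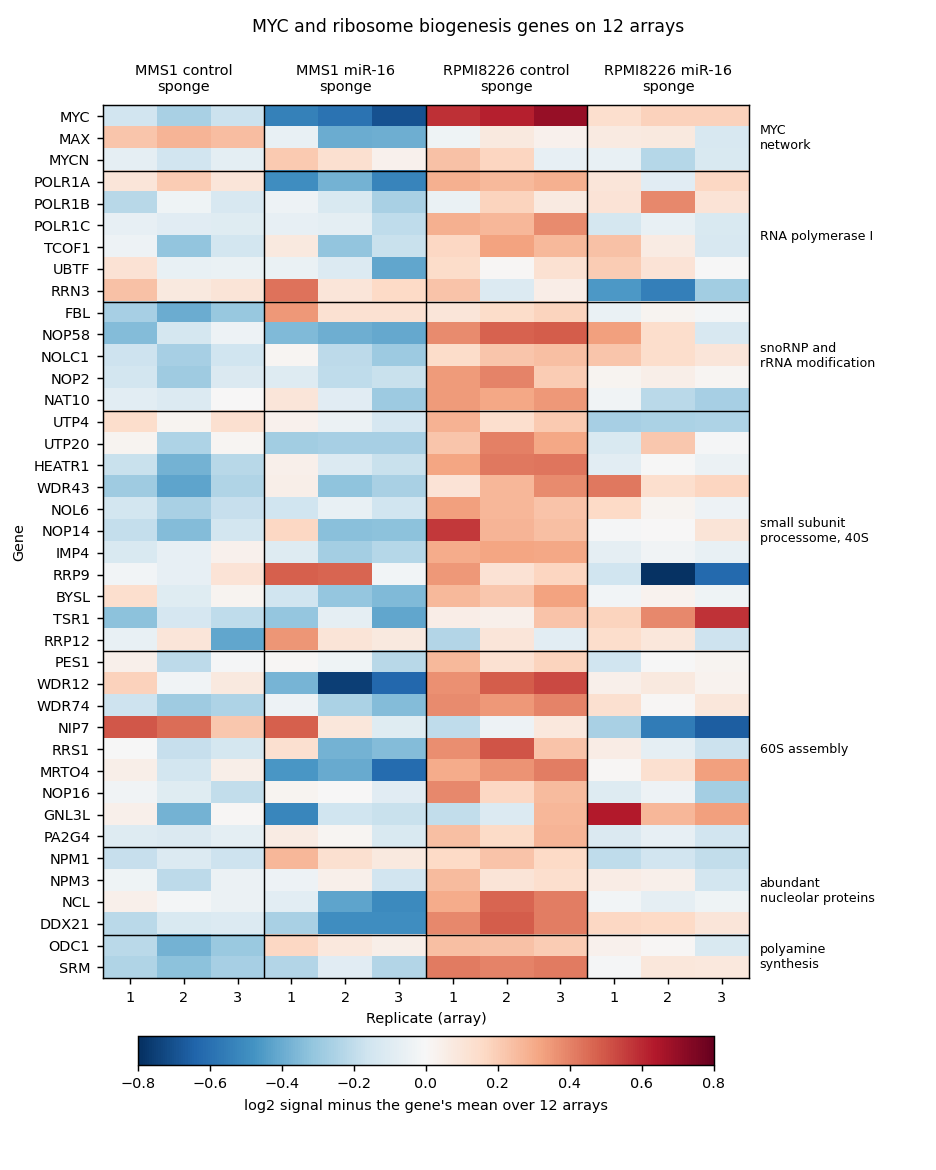
Signal of the 40 measured genes on each of the 12 arrays, as log2 signal minus the gene's own mean over all arrays. Rows are genes grouped by role and columns are replicates in 4 groups; most rows are reddest in the 3 control arrays of RPMI8226, where 29 of 40 genes had their highest group mean.

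The genes as a group were highest in RPMI8226 with the control sponge and lower, by a small amount shared by most of them, in RPMI8226 with the miR-16 sponge. As the heat map by array shows, 29 of the 40 genes had their highest group mean in the RPMI8226 control, against 26.4% of all genes, and 0 had their lowest there. Centred on each gene's mean, the median of the 40 genes was 0.27, 0.25 and 0.25 on the RPMI8226 control arrays. It was 0.02, 0.02 and -0.04 on the RPMI8226 sponge arrays. On the MMS1 control arrays it was -0.07, -0.14 and -0.09, and on the MMS1 sponge arrays -0.04, -0.12 and -0.23. The RPMI8226 controls thus lay above the other 9 arrays without overlap, while both MMS1 groups overlapped each other. The same median over all genes stayed between -0.05 and 0.05 on every array.

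In RPMI8226, the median difference of the 40 genes, miR-16 sponge minus control sponge, was -0.29 on the log2 scale, against -0.02 for all genes. Of the 40 genes, 35 (87.5%) lay below 0, against 53.5% of all genes, with a range from -0.74 for RRP9 to 0.42 for GNL3L. The 3 sponge arrays lay below the 3 control arrays without overlap for 29 genes, where the background was 17.1% of all genes, and above them for 0, where it was 7.79%. Yet limma called 0 of the 40 genes in either direction at an adjusted p under 0.05, where it called 0.202% of all genes lower and 0.0152% higher. At an unadjusted p under 0.05, 27 were lower (9.75% of all genes) and 1, GNL3L, was higher (4.56%). The smallest adjusted p of a member was 0.0643, for MYC. Most genes were thus lower by a small amount, and none passed the threshold singly. Of the 5 erythroid markers, HBE1 also fell in this line (-0.49, adjusted p = 0.0460), and its part was not tested.

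This count turned on the setting. With a spread that follows the signal (limma's intensity trend), 15 of 40 were lower, where 3.30% of all genes were. Among probe sets with a mean of at least 6, 13 of 39 were lower, where 4.66% of all genes were. Without the array of MMS1 with the miR-16 sponge, replicate 1, which enters only through the shared spread, 7 were lower, where 1.25% of all genes were. A fit to the 6 RPMI8226 arrays alone called 0 lower. Medians by signal were -0.28 for the 15 genes with means from 6 to 8, -0.27 for the 17 from 8 to 10 and -0.31 for the 6 from 10 to 12. All genes in the same ranges had medians of -0.02, -0.09 and -0.09.

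In MMS1 the genes moved in both directions and had no common shift. Their median difference was -0.02, against -0.04 for all genes, and turned to 0.05 without the miR-16 sponge array of replicate 3. FBL, ODC1 and NPM1 rose, 3 of 40 genes, where limma called 4.34% of all genes higher. MYC, MAX, POLR1A, WDR12 and MRTO4 fell, 5 of 40, where it called 8.08% lower. At an unadjusted p under 0.05, 3 were higher (9.56% of all genes) and 8 lower (16.1%). The 3 sponge arrays lay above the controls without overlap for 6 genes (12.3% of all genes) and below them for 10 (18.8%). Shares of this size are close to the background. Without MMS1 control replicate 2 or replicate 3, 1 of 40 was called higher, where 2.86% and 3.05% of all genes were. Without miR-16 sponge replicate 1, 2 were higher (3.27% of all genes) and 8 lower (9.19%). Erythroid markers also moved in this line: 4 of the 5 measured fell, ALAS2, of haem synthesis, fell by 2.51, and their part in these differences was not tested.

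**Figure D2:**
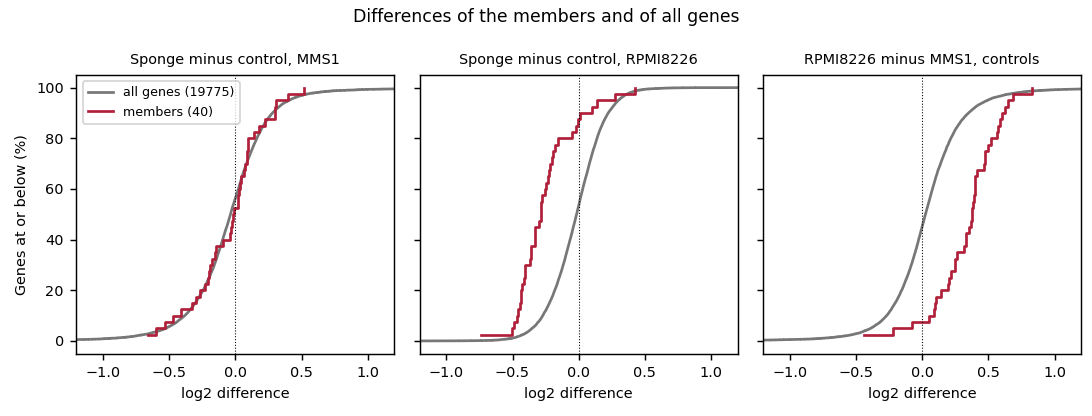
Cumulative share of genes (%) against the log2 difference, for the 40 genes (red) and all 19775 genes (grey), in the sponge comparison of MMS1, that of RPMI8226 and the comparison of control arrays between lines. The red curve follows the grey one in MMS1, lies left of it in RPMI8226 (medians -0.29 and -0.02) and right of it between the controls (0.38 and 0.03).

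The plot of cumulative shares sets these distributions beside the comparison of the control arrays, RPMI8226 minus MMS1, where the genes lay on the other side. Their median was 0.38, against 0.03 for all genes, and 37 of 40 were above 0, against 54.9% of all genes. Limma called 18 higher, where it called 6.52% of all genes higher, and 0 lower, where it called 3.80% lower. At an unadjusted p under 0.05, 29 were higher (14.1% of all genes) and 1 was lower (8.80%). The arrays did not overlap for 32 higher genes (19.4% of all genes) and 2 lower ones (13.0%), MAX and NIP7. This comparison and the RPMI8226 sponge comparison use the same 3 RPMI8226 control arrays, so the values are given side by side and are not independent of each other. Called higher were 11 without MMS1 control replicate 1, 10 without MMS1 control replicate 2 and 11 without RPMI8226 control replicate 3, where 4.20%, 4.10% and 3.99% of all genes were. Without MMS1 sponge replicate 1 there were 23, where 7.84% of all genes were. Erythroid array means differed between the lines too, as given above, and their part was not tested.

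MYC itself was measured by 1 probe set, whose signal was lower on every sponge array than on every control array of the same line. In MMS1 the controls read 10.59, 10.48 and 10.57 and the sponge arrays 10.20, 10.15 and 10.04. In RPMI8226 the controls read 11.32, 11.36 and 11.43 and the sponge arrays 10.87, 10.93 and 10.92. The lowest RPMI8226 array was still above the highest MMS1 array, so the lines did not overlap.

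In MMS1 the MYC mean fell from 10.54 ± 0.06 to 10.13 ± 0.08 (SD, n = 3), a difference of -0.41 ± 0.09 (SE), 1.33-fold lower, with limma's adjusted p = 0.0106. In RPMI8226 it went from 11.37 ± 0.06 to 10.91 ± 0.03 (SD, n = 3), a difference of -0.47 ± 0.09 (SE) with an adjusted p of 0.0643, which missed the threshold. The fits that called it were those with the intensity trend (adjusted p = 0.000301), with dim probe sets left out (0.00829), with the mean over probe sets (0.0227), with arrays centred (0.0493) and without MMS1 sponge replicate 1 (0.0291). The MMS1 call was lost in a fit to the MMS1 arrays alone (0.0602). The differences in the lines were not distinguishable: RPMI8226 minus MMS1 was -0.05 ± 0.13 (SE), adjusted p = 0.878. Averaged over both lines MYC fell by 0.44 (adjusted p = 0.00126), and the RPMI8226 controls were higher than the MMS1 controls by 0.83 (adjusted p = 7.49e-05), 1.78-fold.

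MAX, the obligate partner of MYC, fell in MMS1 and did not pass the test in RPMI8226. The MMS1 controls read 8.45, 8.50 and 8.47 and the sponge arrays 8.16, 7.83 and 7.84, with no overlap. In RPMI8226 the controls read 8.19, 8.30 and 8.26 and the sponge arrays 8.30, 8.31 and 8.09, which overlapped. The MMS1 difference was -0.53 ± 0.11 (SE), 1.44-fold lower, adjusted p = 0.00810, and that in RPMI8226 was -0.02 (adjusted p = 0.963). The test of the difference between lines missed the threshold (0.51, adjusted p = 0.0886) and passed it in 5 alternatives, among them quantile normalization (0.0187). Of the other 4 probe sets of MAX, 1 fell in MMS1 as well (-0.50, adjusted p = 0.0392) and the others lay between -0.30 and -0.07.

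MYCN passed no test. Its brightest probe set read 7.10, 7.02 and 7.10 in the MMS1 controls and 7.39, 7.31 and 7.21 with the sponge. In RPMI8226 it read 7.41, 7.35 and 7.11 in the controls and 7.12, 6.95 and 7.06 with the sponge. The sponge arrays were higher without overlap in MMS1, while 1 control array overlapped the sponge arrays in RPMI8226. The differences were 0.22 (adjusted p = 0.236) and -0.25 (adjusted p = 0.327). The other 9 of its 10 probe sets had means of 5.67 or less and passed no test in either line, so little is known here of its level.

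**Figure D3:**
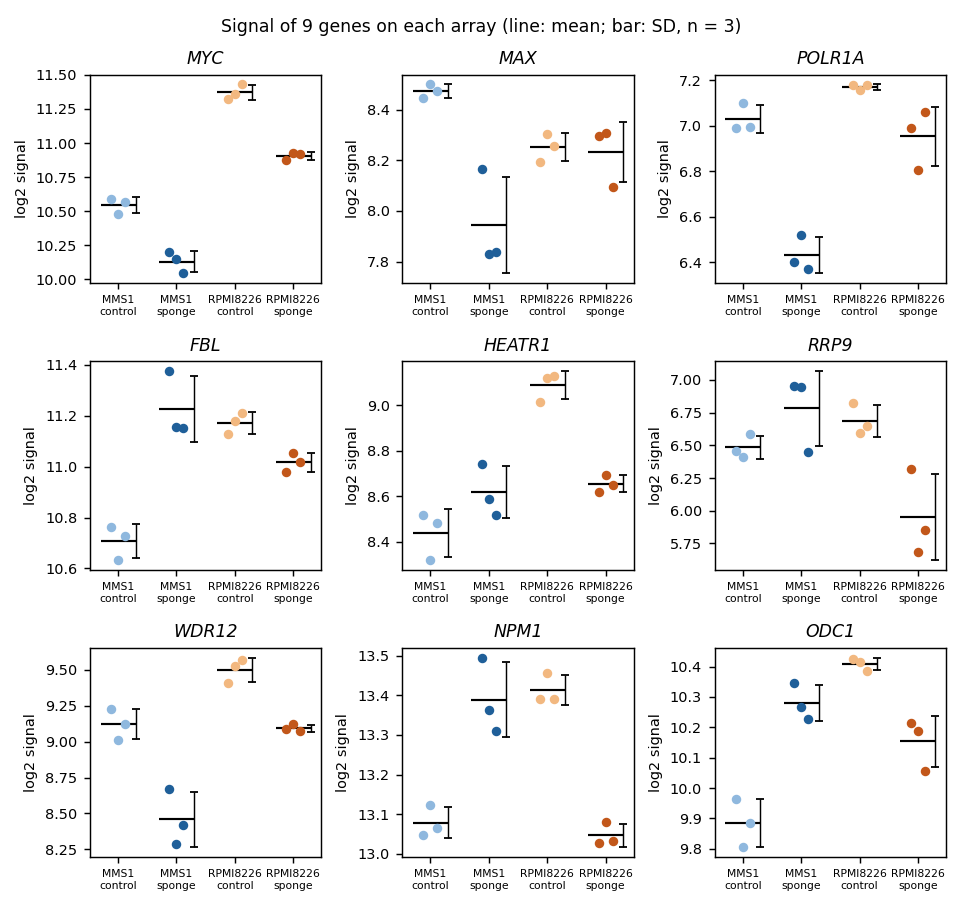
Log2 signal of 9 genes on each array, with a line at the group mean and a bar for the SD (n = 3); each panel has its own vertical range, which does not start at 0. MYC is lower with the miR-16 sponge in both lines (means 10.54 to 10.13 and 11.37 to 10.91), while with it the means of FBL, HEATR1, RRP9, NPM1 and ODC1 are higher in MMS1 and lower in RPMI8226.

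Among genes of RNA polymerase I, which transcribes rRNA, POLR1A fell in MMS1 and the other 5 passed no test of the sponge in either line. POLR1A encodes the catalytic subunit. It read 6.99, 7.10 and 6.99 in the MMS1 controls and 6.40, 6.52 and 6.37 with the sponge, a difference of -0.60 ± 0.10 (SE), 1.51-fold lower, with limma's adjusted p = 0.00159. In RPMI8226 it read 7.18, 7.16 and 7.18 and then 6.99, 6.81 and 7.06 (-0.22, adjusted p = 0.357). The arrays of both lines were ordered the same way without overlap. Its MMS1 call was lost when its 3 probe sets were averaged (adjusted p = 0.279).

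The other RNA polymerase I genes had RPMI8226 differences from -0.49 for RRN3, which brings the polymerase to the promoter, to 0.14 for POLR1B, the second-largest subunit. POLR1C, shared with RNA polymerase III, read 8.09, 8.07 and 8.18 in the RPMI8226 controls and 7.66, 7.74 and 7.68 with the sponge (-0.42, adjusted p = 0.0819), without overlap. Its controls were higher than those of MMS1 by 0.39 (adjusted p = 0.0160), where limma called 6.52% of all genes higher. By brightest probe sets this was the only call of the 6 genes between lines. It was lost in 4 of 20 alternatives, each without 1 array (adjusted p up to 0.0772). Other probe sets of TCOF1 (0.53, adjusted p = 0.00700), POLR1B (0.49, 0.0230) and, near the lower bound, POLR1A (0.86, 0.0323) were called higher as well. The remaining probe sets of these genes were not called between lines. POLR1B depended on the probe set. Its brightest one, of the type that can bind other transcripts (x_at), differed by -0.01 in MMS1, while the next differed by -0.60 (adjusted p = 0.00582) in MMS1 and by -0.46 (0.123) in RPMI8226. UBTF, which binds the rDNA promoter, likewise had -0.19 (adjusted p = 0.370) in MMS1 by its brightest probe set and -0.63 (0.0120) by its second. TCOF1, a cofactor of the polymerase, had differences of 0.03 and -0.19.

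Of the 5 measured snoRNP and rRNA modification genes, FBL rose in MMS1, where limma called 4.34% of all genes higher. All 5 had higher RPMI8226 than MMS1 controls by limma, where 6.52% of all genes did. FBL, fibrillarin, is the methyltransferase of box C/D snoRNPs. It read 10.76, 10.63 and 10.73 in the MMS1 controls and 11.38, 11.16 and 11.15 with the sponge, a rise of 0.52 ± 0.10 (SE), 1.43-fold, adjusted p = 0.00377. In RPMI8226 it read 11.13, 11.18 and 11.21 and then 10.98, 11.05 and 11.02 (-0.16, adjusted p = 0.518). The groups did not overlap in either line, and the order was opposite.

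The other 4 of these genes passed no sponge test. NAT10, which acetylates rRNA and tRNA, read 8.08, 8.04 and 8.08 in the RPMI8226 controls and 7.70, 7.52 and 7.47 with the sponge (-0.50, adjusted p = 0.0913). NOP2, an rRNA methyltransferase, differed by -0.28 in RPMI8226 and NOP58, a core box C/D protein, by -0.33, again without overlap, and by 0.02 and -0.21 in MMS1. NOLC1, a snoRNP chaperone, differed by -0.05 in RPMI8226 by its brightest probe set and by -0.40 and -0.41 by its other 2. Between the controls the 5 genes were higher in RPMI8226 by 0.40 to 0.62 (adjusted p from 0.00536 to 0.0473). Of these calls, that of NAT10 was lost in 11 of 20 alternatives (adjusted p up to 0.146) and that of NOLC1 in 7 (up to 0.115), while those of FBL, NOP58 and NOP2 held in all 20.

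The 11 genes of the small subunit processome and 40S assembly included 0 called in either line, with 1 lower at an unadjusted p under 0.05 in MMS1 (16.1% of all genes) and 8 lower in RPMI8226 (9.75%). Their median difference in RPMI8226 was -0.28, and 8 of 11 were lower there without overlap, as 17.1% of all genes were. UTP4, part of the complex that links rRNA transcription to processing, read 9.05, 8.91 and 8.98 in the RPMI8226 controls and 8.51, 8.52 and 8.53 with the sponge. Its difference was -0.46 ± 0.09 (SE), with limma's adjusted p = 0.0686, against -0.15 in MMS1 (adjusted p = 0.390), where it read 8.92, 8.80 and 8.91 and then 8.81, 8.73 and 8.64. The RPMI8226 groups were well apart and the MMS1 groups overlapped by a single array.

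HEATR1, of the same complex, read 9.02, 9.12 and 9.13 in the RPMI8226 controls and 8.62, 8.69 and 8.65 with the sponge (-0.43 ± 0.10 SE, adjusted p = 0.0972). In MMS1 it read 8.52, 8.32 and 8.48 and then 8.74, 8.59 and 8.52 (0.18, adjusted p = 0.332), where the lowest sponge array only just cleared the highest control. Of its 5 probe sets the third went the other way in both lines (-0.37 and 0.12). RRP9, a U3 snoRNP protein, had the largest RPMI8226 difference of the 40 genes, -0.74 ± 0.17 (SE), 1.67-fold lower, adjusted p = 0.0982. It read 6.82, 6.59 and 6.65 in the controls and 6.32, 5.68 and 5.85 with the sponge, so the sponge arrays were lower but spread widely.

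IMP4, another U3 snoRNP protein, differed by -0.36 in RPMI8226, NOP14 by -0.33, UTP20 by -0.28, BYSL by -0.27 and NOL6 by -0.23, all without overlap. In MMS1 the same genes lay between -0.29 for BYSL (adjusted p = 0.0841) and 0.07 for NOL6. By their brightest probe sets WDR43 (-0.01), RRP12 (0.10) and TSR1 (0.27) did not share the shift in RPMI8226. The other probe sets of RRP12 ran from -0.41 to 0.16. The brightest probe set of TSR1 is also of the x_at type, and its next 2 probe sets differed by -0.30 and -0.42. Between the controls 5 of the 11 genes, HEATR1, WDR43, NOL6, NOP14 and IMP4, were called higher in RPMI8226, by 0.36 to 0.65. Limma called 6.52% of all genes higher in that comparison. The call of IMP4 was lost in 7 of 20 alternatives (adjusted p up to 0.124), those of WDR43 and NOP14 in 3 each, that of NOL6 in 1 and that of HEATR1 in 0.

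Of the 9 measured genes of 60S assembly, WDR12 and MRTO4 fell in MMS1 and 0 were called in RPMI8226, where 6 were lower and 1 higher at an unadjusted p under 0.05 (9.75% and 4.56% of all genes). WDR12 forms a complex with PES1 and BOP1 that processes the large-subunit rRNA. It read 9.23, 9.01 and 9.12 in the MMS1 controls and 8.67, 8.29 and 8.42 with the sponge, a difference of -0.66 ± 0.11 (SE), 1.58-fold lower, with limma's adjusted p = 0.00198. The RPMI8226 arrays read 9.41, 9.53 and 9.57 and then 9.09, 9.12 and 9.07 (-0.41, adjusted p = 0.144). WDR12 was thus lower without overlap in both lines, and another of its probe sets fell in MMS1 too (-0.56, adjusted p = 0.0106).

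MRTO4, a factor that holds the place of the ribosomal stalk during assembly, read 7.17, 6.98 and 7.18 in the MMS1 controls and 6.67, 6.73 and 6.52 with the sponge (-0.47 ± 0.11 SE, adjusted p = 0.0153), a call lost without 3 single arrays (adjusted p up to 0.0650). The RPMI8226 arrays read 7.42, 7.49 and 7.54 and then 7.14, 7.26 and 7.45, groups that overlapped (-0.20, adjusted p = 0.462). PES1, the partner of WDR12, differed by -0.02 in MMS1 and by -0.23 in RPMI8226. NIP7, RRS1, NOP16, PA2G4 and WDR74 lay between -0.44 and -0.30 in RPMI8226, all without overlap, and between -0.23 and 0.09 in MMS1. NIP7 fell in RPMI8226 by its second probe set (-0.78, adjusted p = 0.0307) though not by its brightest (-0.44, 0.241). GNL3L, a nucleolar GTPase, had the highest RPMI8226 difference of the 40 genes, 0.42 (adjusted p = 0.279), by its brightest probe set. Its other probe sets differed there by 0.06, 0.26 and -0.04. Between the controls WDR74 (0.61) and NOP16 (0.38) were called higher in RPMI8226, the call of NOP16 being lost in 13 of 20 alternatives (adjusted p up to 0.361). NIP7 was the lowest of the 40 genes (-0.44, adjusted p = 0.121).

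The 4 abundant nucleolar proteins were all lower on every RPMI8226 sponge array than on any RPMI8226 control array, by 0.18 to 0.43. Of all genes, 17.1% were lower without overlap there. Yet 0 of the 4 passed limma's test in RPMI8226, and 3 were lower at an unadjusted p under 0.05 (9.75% of all genes). NPM1, nucleophosmin, is a chaperone of ribosome assembly and rose in MMS1 by its brightest probe set. It read 13.05, 13.12 and 13.07 in the MMS1 controls and 13.49, 13.36 and 13.31 with the sponge, a difference of 0.31 ± 0.09 (SE), adjusted p = 0.0467. Its RPMI8226 values were 13.39, 13.46 and 13.39 and then 13.03, 13.08 and 13.03 (-0.37, adjusted p = 0.114). The groups did not overlap in either line, with opposite order. The MMS1 call was lost without any single array of the 12, at adjusted p from 0.0535 to 0.141.

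NCL, nucleolin, and DDX21, a nucleolar helicase, went the same way in both lines. NCL differed by -0.33 in MMS1 (adjusted p = 0.0946) and by -0.43 in RPMI8226 (0.133), and DDX21 by -0.27 (0.112) and -0.29 (0.221), all without overlap. NPM3 differed by 0.05 and -0.18. A second, much dimmer probe set of NCL went the other way (0.16 and 0.25). Between the controls DDX21 (0.58, adjusted p = 0.00240) and NPM1 (0.33, 0.0390) were higher in RPMI8226. The call of NPM1 was lost in 13 of 20 alternatives (adjusted p up to 0.133) and that of DDX21 in 0.

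The enzymes of polyamine synthesis, ODC1 at the rate-limiting step and SRM after it, are classical MYC targets. ODC1 read 9.97, 9.81 and 9.89 in the MMS1 controls and 10.35, 10.27 and 10.23 with the sponge, a rise of 0.39 ± 0.09 (SE), adjusted p = 0.0160. Its RPMI8226 values were 10.42, 10.42 and 10.39 and then 10.21, 10.19 and 10.06 (-0.26, adjusted p = 0.251). No groups overlapped, and the order was opposite in the lines. The MMS1 call was lost in a fit to the MMS1 arrays alone (0.0716) and without 2 single arrays (up to 0.0687). SRM read 9.59, 9.57 and 9.59 in the RPMI8226 controls and 9.16, 9.26 and 9.26 with the sponge (-0.36, adjusted p = 0.119), and differed by 0.09 in MMS1. Both were higher in the RPMI8226 than in the MMS1 controls, SRM by 0.69 (adjusted p = 0.000322) and ODC1 by 0.52 (0.00330).

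**Figure D4:**
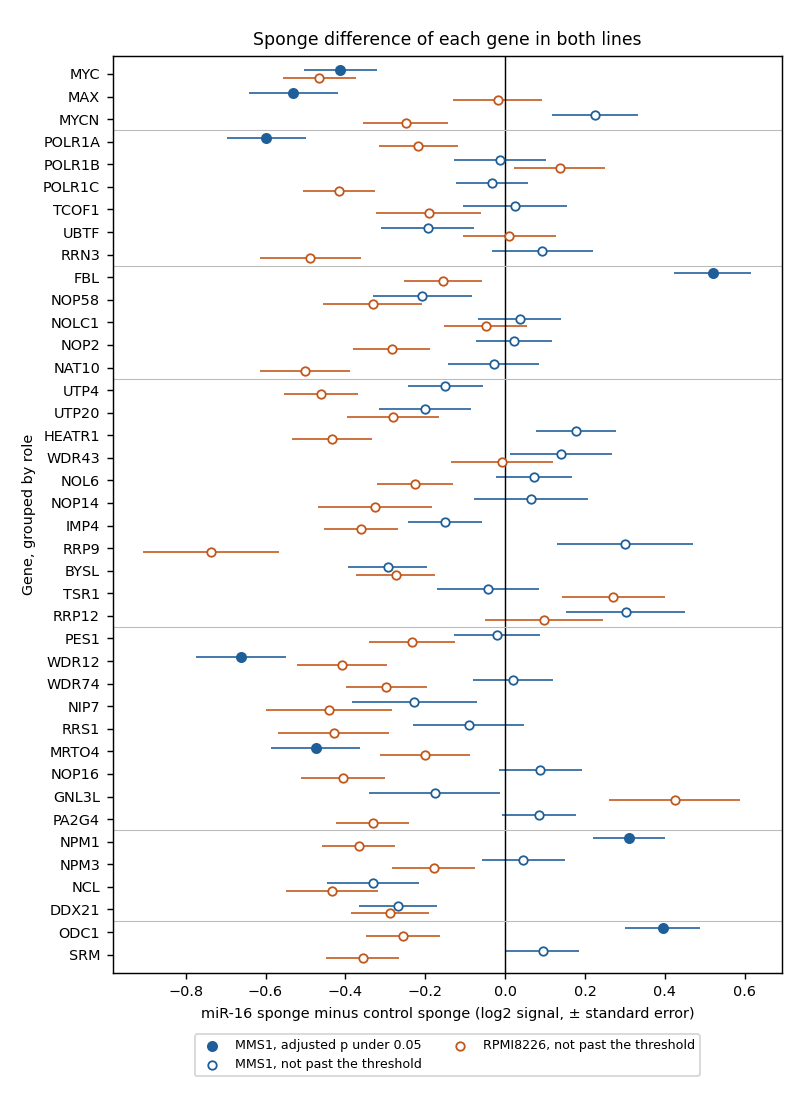
Sponge difference of each of the 40 genes in MMS1 (blue) and RPMI8226 (orange), as log2 signal with miR-16 sponge minus control sponge, with bars for the standard error; filled points passed an adjusted p of 0.05. The 8 filled points are all blue and lie on both sides of 0, and 35 of 40 orange points lie left of 0.

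Whether the sponge differences themselves differed between the lines was tested with the interaction, RPMI8226 difference minus MMS1 difference. Limma called 5 of 40 genes lower, FBL, HEATR1, RRP9, NPM1 and ODC1, where it called 3.27% of all genes lower. It called 0 higher, where it called 2.63% of all genes higher. At an unadjusted p under 0.05 there were 16 lower (9.98% of all genes) and 3 higher (10.1%). The median was -0.22, against 0.04 for all genes. As the plot of both lines' differences shows, each of the 5 called genes lay above 0 in MMS1 and below 0 in RPMI8226.

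NPM1 had an interaction of -0.68 ± 0.13 (SE, adjusted p = 0.00847), FBL one of -0.67 ± 0.14 (0.0128) and ODC1 one of -0.65 ± 0.13 (0.0126), by limma. These 3 calls held in every alternative run. RRP9 had the largest, -1.03 ± 0.24 (0.0257), and HEATR1 had -0.61 ± 0.14 (0.0249). The call of RRP9 was lost without 8 single arrays (adjusted p up to 0.0655) and that of HEATR1 without 6 (up to 0.0694). HEATR1 was also lost with the mean over its probe sets (-0.32, adjusted p = 0.138). Called lower were 3 of the 40 genes without MMS1 control replicate 2, RPMI8226 control replicate 3, or RPMI8226 sponge replicate 2 or 3, where 2.01% to 2.21% of all genes were. Without MMS1 sponge replicate 1 there were 4 lower (2.77% of all genes) and 1 higher (3.09%). Of the 5 erythroid markers 3 passed this test in the opposite direction, and their part was not tested.

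Averaged over both lines, limma called 9 of 40 genes lower, MYC, POLR1A, UTP4, IMP4, BYSL, WDR12, MRTO4, NCL and DDX21, where it called 6.60% of all genes lower. It called 0 higher, where it called 2.24% of all genes higher. At an unadjusted p under 0.05 there were 17 lower (15.8% of all genes) and 1 higher (7.30%). WDR12 had the largest average, -0.54 ± 0.08 (SE, adjusted p = 0.00138), followed by MYC (-0.44) and POLR1A (-0.41, adjusted p = 0.00347). NCL fell by 0.38 (adjusted p = 0.0128) and UTP4 by 0.31 (0.0136). The calls of MYC, WDR12 and UTP4 held in all 20 alternatives, while that of IMP4 was lost in 13, DDX21 in 10, BYSL in 9 and MRTO4 in 6. POLR1A (-0.22, adjusted p = 0.0914) and NCL (-0.09, 0.331) were lost with the mean over probe sets. The count was 14 without MMS1 sponge replicate 1, where 9.40% of all genes were lower. It was 5 without MMS1 control replicate 3, MMS1 sponge replicate 3 or RPMI8226 control replicate 3, where 4.25%, 4.81% and 4.48% were. POLR1B had an average of 0.06 by its brightest probe set and of -0.53 (adjusted p = 0.00213) with x_at probe sets left out, an alternative chosen after the data had been seen.

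Genes outside the 46 that serve the same pathway were counted from 4 further lists, none of which had a gene called in RPMI8226 by limma. Of 71 measured other ribosome biogenesis genes, 61 (85.9%) lay below 0 in RPMI8226 (53.5% of all genes; median -0.18), with 24 lower (9.75%) and 1 higher (4.56%) at an unadjusted p under 0.05. In MMS1 6 of the 71 rose (4.34% of all genes) and 2 fell (8.08%). TAF1D of a polymerase I initiation complex rose by 0.79 (adjusted p = 0.00115) and PWP2 of the processome fell by 0.61 (0.00214). In the interaction 10 of them were called lower (3.27% of all genes) and 0 higher (2.63%), among them UTP15 (-1.09, adjusted p = 0.00334) and TAF1D (-1.03, 0.00446). Between the controls 20 were higher in RPMI8226 (6.52% of all genes) and 1 was lower (3.80%).

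Of 29 measured MYC targets outside the nucleolus, 25 (86.2%) lay below 0 in RPMI8226 (53.5% of all genes; median -0.23), with 16 lower (9.75%) and 1 higher (4.56%) at an unadjusted p under 0.05. Limma called 3 of the 29 lower in MMS1 (8.08% of all genes) and 2 higher (4.34%), not far from the background. There CDK4, a cell cycle kinase, fell by 0.74 (adjusted p = 0.000146), ATIC of purine synthesis fell by 0.45 (0.00671) and the mitochondrial chaperone HSPE1 fell by 0.45 (0.0127). TFRC, the transferrin receptor, rose by 0.67 (0.00125) and SLC3A2, part of an amino acid transporter, rose by 0.44 (0.00481). Between the controls 11 were higher in RPMI8226 (6.52% of all genes) and 0 were lower (3.80%). Of 16 measured partners and antagonists of MYC, 12 lay below 0 in MMS1 (56.4% of all genes; median -0.13). In RPMI8226 11 did (53.5%; median -0.08). Limma called 2 of the 16 higher in MMS1 (4.34% of all genes) and 1 lower (8.08%). There MXD1, which competes for MAX, rose by 0.93 (adjusted p = 0.000206), MXI1 rose by 0.41 (0.0248) and RUVBL1 fell by 0.37 (0.0412). The interaction of MXD1 was -1.08 (adjusted p = 0.00208). The 52 cytosolic ribosomal proteins had medians of 0.06 in MMS1 and -0.02 in RPMI8226. Limma called 0 of them in either line, where it called 12.4% and 0.217% of all genes. In MMS1 22 were higher without overlap (12.3% of all genes) and 9 lower (18.8%). In RPMI8226 13 were higher without overlap (7.79%) and 18 lower (17.1%). At an unadjusted p under 0.05, 2 were higher and 4 lower in MMS1 (9.56% and 16.1% of all genes), and 1 was higher and 3 lower in RPMI8226 (4.56% and 9.75%). Between the controls 48 of the 52 (92.3%) were above 0 (54.9% of all genes), with a median of 0.12. There 39 were higher in RPMI8226 without overlap (19.4% of all genes), and limma called 2 higher (6.52%) and 0 lower (3.80%).

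The 7 genes with CACGTG in the upstream window, whose sequences are given above, had RPMI8226 sponge differences from -0.50 for NAT10 to -0.26 for ODC1, with a median of -0.36. The 27 matched genes without it had a median of -0.27 and ran from -0.74 to 0.42, so the ranges overlapped. Over all matched genes the medians were -0.05 with the motif and -0.02 without. In MMS1 the 7 genes had a median of -0.15 and the 27 one of 0.02, and between the controls the medians were 0.40 and 0.33. A match is a description of the letters in the window and was not tested.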

How the data were processed

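The authors deposited a table of log2 signals, 1 per probe set and array; the summarization and scaling are not given in the sources used here. Groups were read from the sample titles. The 54613 probe sets other than Affymetrix controls were tested. Names came from the platform annotation through gene identifiers and RefSeq's GRCh38.p14 table, and each of 19775 genes kept its brightest probe set naming it alone. Limma 3.58.1 (R 4.3.3) fitted group means on the 12 arrays together (8 residual and 4.92 prior degrees of freedom), with no further normalization. P-values are two-sided, Benjamini-Hochberg adjusted over the 54613 probe sets within each comparison, and a call is an adjusted p under 0.05. The fit was tested on simulated data with known changes in randomly chosen probe sets. That run did not address small shifts shared by many genes.

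The 46 genes, their roles and the other lists were chosen with earlier results of these data known. Values of every array are given for MYC, MAX and MYCN and, in each role, for genes called in either line, or otherwise the 2 of smallest p in RPMI8226; other genes shown so were chosen after their values were seen. From the other lists at most 3 called genes each way are named. Alternatives were 12 fits without 1 array each, and other probe set rules, scalings, spreads and sample sets.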

Additional observations from a re-analysis of the deposited data

Results flagged for a closer look

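For 5 genes the sponge differences of the lines themselves differed by limma's interaction test, RPMI8226 difference minus MMS1 difference on the log2 scale. The interaction was -0.67 for FBL, with 0.52 in MMS1 and -0.16 in RPMI8226. NPM1 had -0.68 by its brightest probe set, with 0.31 and -0.37, and ODC1 had -0.65, with 0.39 and -0.26. The third probe set of NPM1 had -0.33 (adjusted p = 0.172), which is not a call. HEATR1 had -0.61, with 0.18 and -0.43, and RRP9 had -1.03, with 0.30 and -0.74. In FBL, NPM1, ODC1 and HEATR1 the sponge and control arrays of each line did not overlap, and their order was opposite in the lines; in RRP9 the MMS1 arrays overlapped.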

How the results depend on the processing

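Medians and counts of the 40 genes were recomputed under 21 alternatives. Shares of all genes stand in parentheses for part of the counts. For counts that moved without 1 array they are given in the results above. In RPMI8226 the median stayed between -0.30 and -0.28 without single arrays and was -0.21 under quantile normalization and under cyclic loess; called lower were 13 with dim probe sets left out (4.66%), 15 with the intensity trend (3.30%), 4 with the mean over probe sets (0.410%), 1 with centred arrays (0.324%) and 0 to 7 without single arrays. In MMS1 1 was higher in a fit to MMS1 arrays alone (2.71%) and 1 to 2 without single arrays (2.86% to 4.20%), close to the background. With dim probe sets left out 8 were lower (17.3%), as with the trend (10.7%) and the mean over probe sets (9.10%). Without single arrays 4 to 8 were lower (5.10% to 9.19%), and the median ran from -0.065 to 0.046. Averaged, 15 with dim probe sets left out (16.9%) and 14 with the trend (10.1%) were lower, 5 to 14 without single arrays, and 1 was higher under each of the first 2. In the interaction 11 with dim probe sets left out (9.35%), 10 with the trend (6.07%) and 8 with centred arrays (4.76%; median -0.27) were lower and 3 to 5 without single arrays, with medians from -0.28 to -0.16; 2 with dim probe sets left out and 1 each with trend, loess and quantile were higher, and 0 to 1 without single arrays. Between controls 10 to 23 were higher without single arrays, the median was 0.32 after centring, and 1 was lower with dim probe sets left out, trend, loess or quantile.

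Of 200 results for single genes, 40 were calls, and 18 of these held in every alternative; of the 160 others, 49 were gained in some alternative. The average of POLR1B turned from 0.06 to -0.20 with the mean over probe sets and to -0.53 with x_at probe sets left out; the cause was not tested. Same-numbered arrays did not deviate together (18 correlations of residuals between -0.07 and 0.06). With the replicate number as a block, calls higher and lower were 2 and 5 in MMS1 (3.67% and 6.85% of all genes). In RPMI8226 they were 0 and 0 (0.0152% and 0.0657% of all genes). They were 0 and 7 averaged, 0 and 4 in the interaction (HEATR1 lost, adjusted p = 0.0528) and 14 and 0 between controls. For these last comparisons the shares of all genes are not given here.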
